A study of Mus musculus with 10 samples.

Results

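The mitochondrial genome of the mouse encodes 37 genes, and each has a row in the deposited table: 13 mRNAs, 2 ribosomal RNAs (rRNAs) and 22 transfer RNAs (tRNAs), out of 57010 rows in all. They were chosen by name, as every row whose symbol in the GENCODE M21 annotation starts with mt-, a rule that uses no measured value. RNA abundance was measured by bulk sequencing of retinas from 10 mice aged 6 to 8 weeks. A vector for green fluorescent protein (GFP), made from adeno-associated virus (AAV), had been injected into the vitreous 14 days earlier, packaged either in the AAV2 capsid (AAV2-GFP, 5 mice) or in a capsid called AAV206 (AAV206-GFP, 5 mice). Both groups carry a vector and the same reporter, and uninjected retinas were not analysed here. Every difference is therefore between these groups of mice and not from an untreated baseline. The strain and sex of the mice and the promoter of the transgene are not given in the sources used here. Differences are given for AAV206-GFP relative to AAV2-GFP.

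Mitochondrial DNA is a small circle that is transcribed from both strands into long precursors. In the usual account, the tRNAs lie between the other genes and are cut out, which releases the mRNAs and the 12S and 16S rRNAs. The mRNAs encode core subunits of respiratory complexes I, III and IV and of ATP synthase (complex V), and the rRNAs form the mitochondrial ribosome that translates them. All other proteins of the organelle are encoded in the nucleus, and photoreceptors pack mitochondria densely into their inner segments.

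The first sequences show how tightly these genes are packed, which bears on what could be counted. Printed 5′ to 3′ from the GENCODE M21 genome (GRCm38, the mm10 build), they are the tRNA mt-Tf at the start of the circle (chrM:1-68), the tRNA mt-Tv that separates the 12S and 16S rRNA genes (chrM:1025-1093), and the shortest of the tRNAs, mt-Ts2 (chrM:11613-11671). The last is the junction of mt-Atp8 and mt-Atp6 (chrM:7907-7989), in which capitals mark the 43 bases that belong to both genes.
mt-Tf: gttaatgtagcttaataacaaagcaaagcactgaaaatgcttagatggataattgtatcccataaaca
mt-Tv: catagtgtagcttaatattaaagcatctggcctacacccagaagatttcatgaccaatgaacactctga
mt-Ts2: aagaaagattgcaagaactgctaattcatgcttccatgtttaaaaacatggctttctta
mt-Atp8/mt-Atp6 junction: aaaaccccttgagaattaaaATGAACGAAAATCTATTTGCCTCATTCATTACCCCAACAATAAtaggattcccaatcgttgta

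The tRNAs were at 0 counts in all 22 rows and all 10 libraries. Their genes are 59 to 75 bases long, each shorter than one 150-base read, and 8 of them lie on the minus strand. A count of 0 allows up to 3 counts, which is 0.235 to 0.273 CPM (counts scaled to library size) at the depth of these libraries, and this limit covers counting error only. No level can be given for the tRNAs from these counts, and no comparison below uses them.

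The other 15 genes had counts and all passed the filter on low counts, alongside 15539 genes tested in all. The values are estimated counts per gene, and levels are given as CPM scaled by edgeR's trimmed mean of M values (TMM), as mean ± standard deviation (SD, n = 5 mice per group). Total counts ran from 10989843 to 12752604 per library. A gene was called when its p-value from edgeR's quasi-likelihood F test, adjusted by the Benjamini-Hochberg method over all tested genes, was under 0.05. By this rule 1747 genes were called (11.2% of those tested), 924 of them higher (5.95%) and 823 lower (5.30%) with AAV206-GFP. These p-values weigh the difference between the groups against the spread between mice within a group, estimated with information shared across genes. Rod markers summed to between 56215 and 65979 CPM, as in a retina, against 14.9 to 42.9 CPM for markers of the retinal pigment epithelium, and every listed marker of rods and of the pigment epithelium had counts in some library.

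On average the mitochondrial genome took a slightly larger share of the total count with AAV206-GFP (3.94% against 3.71%), and this came from the mRNAs. The groups overlapped, with 3 of the 5 AAV206-GFP libraries above the highest AAV2-GFP library. The 13 mRNAs together took 3.53%, 3.47%, 3.71%, 3.52% and 3.55% of the total count in the AAV2-GFP libraries 1 to 5, and 3.59%, 3.83%, 3.84%, 4.04% and 3.74% in the AAV206-GFP libraries 1 to 5. The means were 3.55% ± 0.0885 and 3.81% ± 0.166, and 4 of the 5 AAV206-GFP libraries lay above the highest AAV2-GFP library. The rRNAs went the other way: the 2 rows took 0.138%, 0.140%, 0.188%, 0.162% and 0.148% with AAV2-GFP and 0.135%, 0.129%, 0.141%, 0.117% and 0.128% with AAV206-GFP. Their means were 0.155% ± 0.0209 and 0.130% ± 0.00888, and the groups overlapped. A sum over genes was given no test. In whole retinas, more or fewer cells of a type and more or less RNA per cell cannot be told apart. Rod markers moved with the mRNA share: the 11 markers summed to between 56215 and 60007 CPM for AAV2-GFP and between 59739 and 65979 CPM for AAV206-GFP, with 2 called higher and 2 lower. Their part in the share was not tested.

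**Figure D1:**
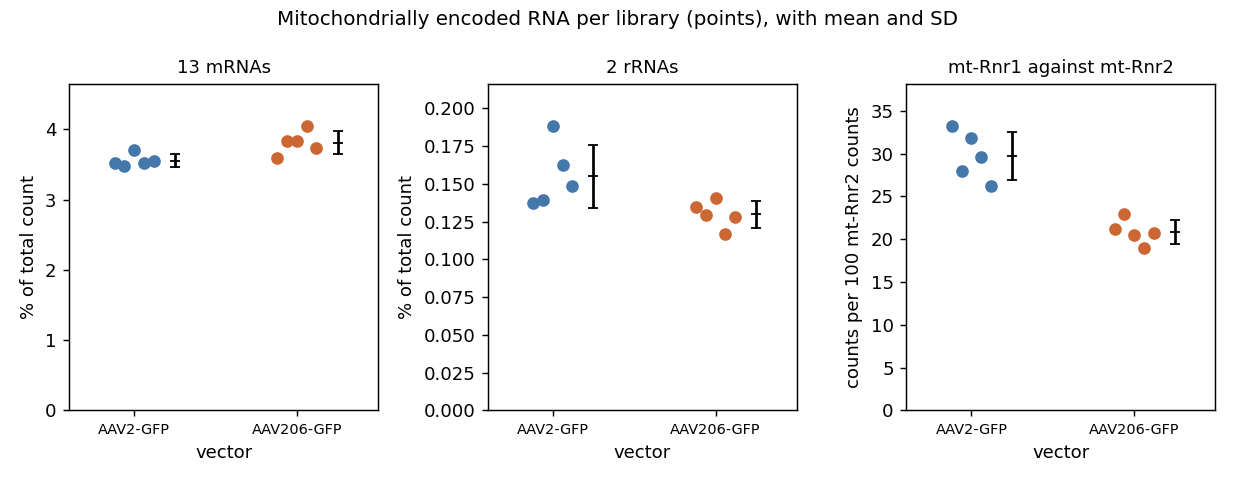
Each point is 1 library. The left and middle panels give the percent of the total count on the 13 mRNAs and the 2 rRNAs, the right panel the mt-Rnr1 counts per 100 mt-Rnr2 counts, and the black marks the mean and SD of 5 libraries. The mRNA share was higher on average with AAV206-GFP (3.81% against 3.55%) with overlapping groups, while the ratio of the rRNAs did not overlap (18.9 to 23.0 against 26.3 to 33.2).

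The clearest difference in the mitochondrial genome was in the 12S rRNA, the RNA of the small ribosomal subunit, encoded by mt-Rnr1 (chrM:70-1024). Its level was 343, 308, 447, 369 and 308 CPM in AAV2-GFP libraries 1 to 5 and 233, 242, 239, 188 and 223 CPM in AAV206-GFP libraries 1 to 5. All 5 AAV206-GFP libraries lay below the lowest AAV2-GFP library. The mean fell from 355 ± 57.2 to 225 ± 22.05 CPM, or by 36.7%, with a log2 fold change of -0.66 (SE 0.10, edgeR adjusted p = 0.000559). Over all tested genes, 9.78% had groups that did not overlap, 5.41% with AAV206-GFP higher and 4.36% with AAV206-GFP lower. The call held in all 10 fits that left out 1 library, with a log2 fold change between -0.71 and -0.57, and in all 11 alternatives of scaling, filter, test or block.

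The 16S rRNA of the large subunit, encoded by mt-Rnr2 (chrM:1094-2675) and separated from mt-Rnr1 by mt-Tv alone, did not pass the test. Its level was 1034, 1103, 1405, 1246 and 1175 CPM for AAV2-GFP and 1100, 1052, 1169, 990 and 1076 CPM for AAV206-GFP. The groups overlapped, and the log2 fold change was -0.15 (SE 0.08, edgeR adjusted p = 0.216). The ratio of the rRNAs within each library needs no scaling between libraries: mt-Rnr1 had 33.2, 27.9, 31.8, 29.6 and 26.3 counts per 100 mt-Rnr2 counts with AAV2-GFP, and 21.2, 23.0, 20.4, 18.9 and 20.7 with AAV206-GFP. The groups did not overlap on this ratio (29.8 ± 2.81 against 20.8 ± 1.45). Relative to the mRNAs, mt-Rnr1 had between 0.870 and 1.23 counts per 100 mitochondrial mRNA counts with AAV2-GFP and between 0.461 and 0.655 with AAV206-GFP, again without overlap.

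Whether rRNA was depleted or polyadenylated RNA selected for these libraries is not given in the sources used here. Of the long non-coding RNAs set beside the rRNAs, none of the 3 tested was called with edgeR, and DESeq2 called 1. An unadjusted edgeR p under 0.05 was found for 1 of them, Meg3 (log2 fold change 0.27, edgeR adjusted p = 0.0713). It was called in 1 of the 10 fits without 1 library. Malat1, a nuclear-retained RNA, was at 1552 ± 597 CPM for AAV2-GFP and 1739 ± 280 CPM for AAV206-GFP (edgeR adjusted p = 0.620). Markers of some other cells also moved: red cell markers summed to between 67.7 and 85.6 CPM for AAV2-GFP and between 100.3 and 318 CPM for AAV206-GFP, with 4 of 5 called higher. Microglial and macrophage markers summed to between 24.6 and 223 CPM for AAV2-GFP and between 19.3 and 28.1 CPM for AAV206-GFP, with 2 of 6 called lower. Lens markers summed to between 10.8 and 33.0 CPM for AAV2-GFP and between 0.728 and 12.3 CPM for AAV206-GFP, with 2 of 3 called lower by edgeR and 0 called by DESeq2. Endothelial markers had 1 called higher and 2 lower of 6, and cone markers 2 higher and 1 lower of 9. Their part in the rRNA levels was not tested. The highest sum of the microglial and macrophage markers was in AAV2-GFP library 1. Without that library mt-Rnr1 stayed called, with a log2 fold change of -0.67 (edgeR adjusted p = 0.000677), as it did without AAV2-GFP libraries 1 and 4 together (-0.66, adjusted p = 0.00251). Leaving out libraries cannot show the part of these cells in the rRNA levels, which was not tested.

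**Figure D2:**
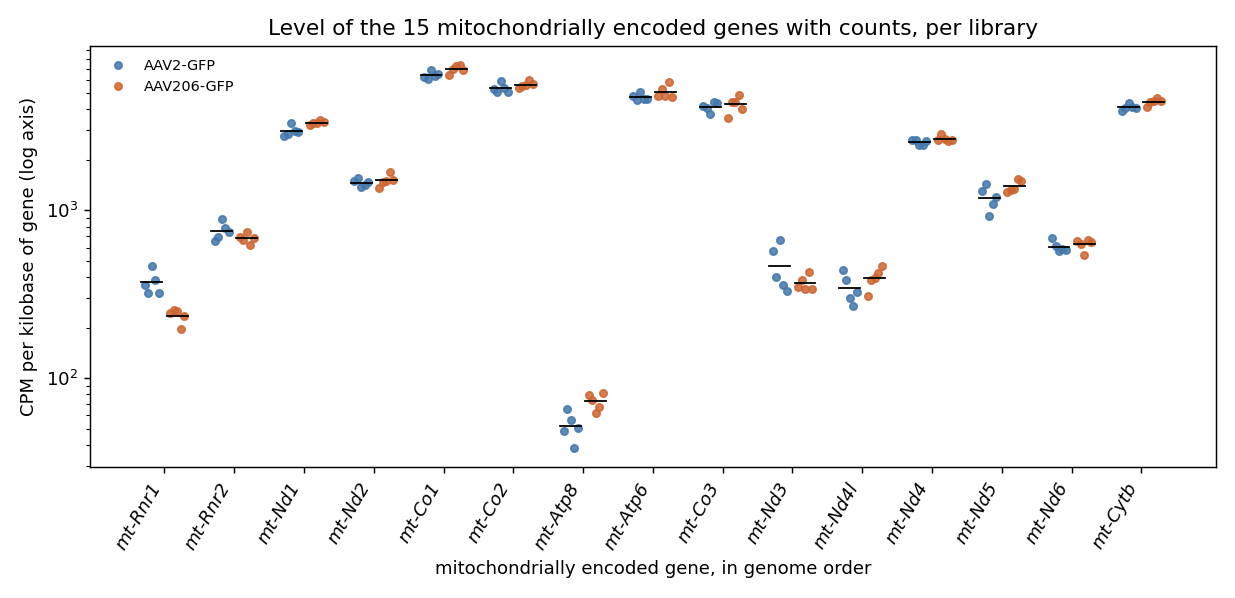
Each point is the level of a gene in 1 library, in CPM per kilobase of gene on a log axis, for the 15 genes with counts in genome order. Black lines are group means. For mt-Rnr1 the AAV206-GFP points all lie below the AAV2-GFP points, and for every mRNA the groups overlap.

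Per kilobase, the mRNAs spanned a wide range. Averaged per group with AAV2-GFP and AAV206-GFP in turn, mt-Co1 was highest at 6418 and 6997 CPM per kilobase, followed by mt-Co2 at 5358 and 5626 and mt-Atp6 at 4743 and 5112. The lowest was mt-Atp8 at 51.6 and 72.7 CPM per kilobase, well under mt-Nd4l at 344 and 395 and mt-Nd3 at 467 and 368. The low values belong to the shortest genes, from 204 to 348 bases, and mt-Atp8 and mt-Nd4l also share bases with their neighbours. Of all mitochondrial mRNA counts, mt-Co1 took 28.0% ± 0.966 with AAV2-GFP and 28.3% ± 0.613 with AAV206-GFP, and mt-Cytb took 13.3% ± 0.346 and 13.3% ± 0.166.

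Between the groups, 1 of the 13 mRNAs was called, mt-Atp8, and 12 were not (7.69% called, against 11.2% of all tested genes). The log2 fold change was above 0 in 12 of 13, against 48.2% of all tested genes. The median was 0.11, with a range from -0.34 to 0.50, while the median over all tested genes was -0.01. The median size of change was 0.16 over all tested genes and 0.40 over those called. At an unadjusted p under 0.05 there were 6 mRNAs, 5 of them higher. These genes lie on shared precursors and were scaled together, so they are not independent measurements. Scaling each library to its own summed mitochondrial mRNA count centres the mRNAs by construction. Those with a log2 fold change above 0 but below that of the sum therefore had to turn. Under this scaling mt-Nd2, mt-Co2, mt-Co3, mt-Nd4 and mt-Nd6 changed sign and mt-Atp8 was no longer called (log2 fold change 0.395, adjusted p = 0.0736).

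mt-Atp8 encodes a small membrane subunit of ATP synthase (chrM:7766-7969). It had 9.92, 13.3, 11.4, 7.81 and 10.2 CPM in AAV2-GFP libraries 1 to 5 and 16.2, 15.1, 12.6, 13.7 and 16.6 CPM in AAV206-GFP libraries 1 to 5. All but 1 of the AAV206-GFP libraries lay above the highest AAV2-GFP library. The mean rose from 10.5 ± 2.01 to 14.8 ± 1.69 CPM (log2 fold change 0.50, SE 0.14, edgeR adjusted p = 0.0329). The counts behind it were few, 97 to 196 per library, and it shares 43 bases with mt-Atp6. The call was lost when any of AAV2-GFP library 4 or 5 or AAV206-GFP library 1, 2, 4 or 5 was left out (adjusted p of 0.0840, 0.0662, 0.0694, 0.0739, 0.0507 and 0.0674), with the replicate number as a block (0.0502) and without AAV2-GFP libraries 1 and 4 together (0.154). mt-Atp6, the larger ATP synthase subunit encoded beside it, was at 3230 ± 141 CPM for AAV2-GFP and 3481 ± 313 CPM for AAV206-GFP (log2 fold change 0.11, SE 0.06, adjusted p = 0.257). Per 1000 mt-Atp6 counts there were 2.47 to 4.28 mt-Atp8 counts with AAV2-GFP and 3.44 to 5.10 with AAV206-GFP, with overlap.

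Complex I, the NADH dehydrogenase, has 7 subunits encoded here. Their summed share was 1.03% to 1.11% of the total count with AAV2-GFP and 1.12% to 1.20% with AAV206-GFP. The groups did not overlap, by a narrow margin (highest AAV2-GFP 1.108%, lowest AAV206-GFP 1.118%), while those for complexes III, IV and V overlapped. Of all tested genes, 9.78% had groups that did not overlap. The sum was given no test, and none of the 7 subunits was called. The nearest to the threshold was mt-Nd1 (chrM:2751-3707), at 2677, 2748, 3199, 2858 and 2823 CPM for AAV2-GFP and 3112, 3177, 3161, 3314 and 3239 CPM for AAV206-GFP. AAV2-GFP library 3 alone reached the AAV206-GFP range. Its log2 fold change was 0.16 (SE 0.05, edgeR adjusted p = 0.0586), and it was called without that library (0.20, adjusted p = 0.0164), with DESeq2 (adjusted p = 0.0168), with upper-quartile scaling (0.0456) and with limma-voom sample weights (0.0196). mt-Nd5 (chrM:11742-13565) was at 2368, 2635, 1681, 1994 and 2200 CPM for AAV2-GFP and 2340, 2425, 2442, 2806 and 2743 CPM for AAV206-GFP, and here AAV2-GFP library 3 was the lowest of all. The log2 fold change was 0.23 (SE 0.10, adjusted p = 0.130), and it was called without AAV2-GFP library 2 (adjusted p = 0.0367). The others had log2 fold changes of 0.04 for mt-Nd2, 0.07 for mt-Nd4, 0.20 for mt-Nd4l and 0.05 for mt-Nd6, with adjusted p from 0.296 to 0.667. mt-Nd6 is the 1 mRNA on the minus strand (chrM:13552-14070). Whether counting used strand is not given in the sources used here, so its reads and those of transcripts from the opposite strand may not be separated.

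Of the complex IV subunits, which form the catalytic core of cytochrome c oxidase, none of the 3 was called. mt-Co1 (chrM:5328-6872) was at 9652, 9414, 10698, 9775 and 10040 CPM for AAV2-GFP and 9964, 10745, 11288, 11369 and 10688 CPM for AAV206-GFP. The groups overlapped, and the log2 fold change was 0.12 (SE 0.05, edgeR adjusted p = 0.109). mt-Co2 had a log2 fold change of 0.07 (SE 0.05, adjusted p = 0.397) and mt-Co3 of 0.04 (SE 0.07, adjusted p = 0.761), and the sign of mt-Co3 turned when AAV206-GFP library 4 was left out (-0.01). mt-Cytb, the complex III subunit (chrM:14145-15288), was at 4509, 4680, 4995, 4727 and 4699 CPM for AAV2-GFP and 4752, 5080, 5116, 5342 and 5157 CPM for AAV206-GFP. In all but 1 AAV206-GFP library it exceeded the highest AAV2-GFP level, with a log2 fold change of 0.11 (SE 0.05, adjusted p = 0.144).

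**Figure D3:**
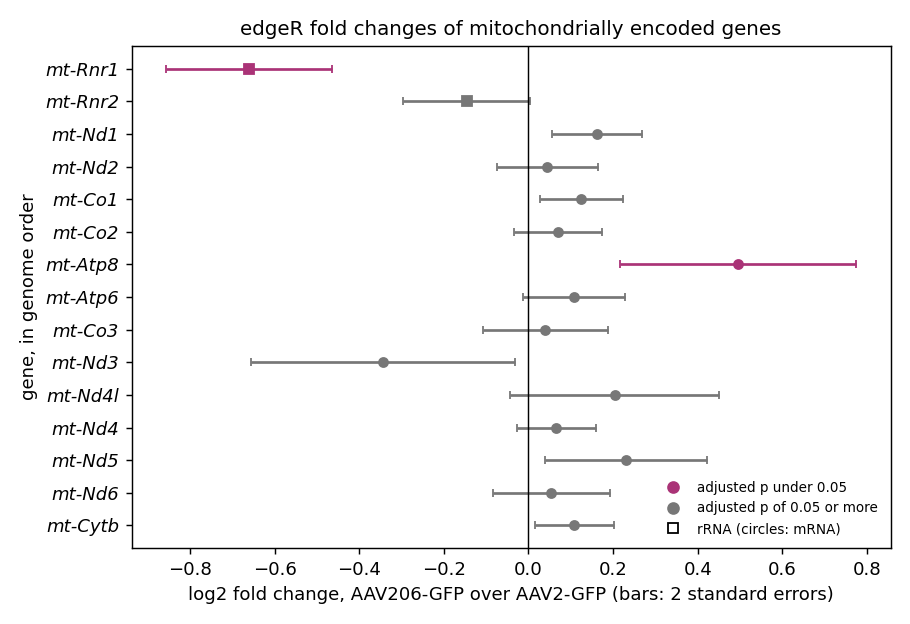
Points are edgeR log2 fold changes of AAV206-GFP over AAV2-GFP with bars of 2 standard errors, squares for rRNAs and circles for mRNAs, coloured by whether the adjusted p was under 0.05. mt-Rnr1 lies at -0.66 and mt-Atp8 at 0.50, the 2 called genes, and the other mRNAs apart from mt-Nd3 lie between 0.04 and 0.23.

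Some of these counts are shared with copies of mitochondrial DNA in the nuclear genome. On chromosome 1, 7 annotated pseudogenes lie together between chr1:24611535 and chr1:24616197 on the minus strand, and each matches part or nearly all of a mitochondrial mRNA with at most 1 substitution. Their sequences show why reads could not be assigned with certainty. mt-Co3 and Gm28437 are identical over 783 aligned bases, mt-Nd3 and Gm28438 differ at 1 of 345 bases, and mt-Co1 and Gm29216 at 1 of 483. Capitals mark the base that differs, a substitution T3C from mt-Nd3 to Gm28438 and A1066T from mt-Co1 to Gm29216, counted from the first base of the mitochondrial gene. The lines give mt-Nd3 (chrM:9459-9491), Gm28438 (chr1:24613087-24613119, minus strand), mt-Co1 (chrM:6390-6423), Gm29216 (chr1:24616155-24616188, minus strand) and the first 60 bases of mt-Co3 (chrM:8607-8666).
mt-Nd3: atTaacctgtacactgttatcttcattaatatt
Gm28438: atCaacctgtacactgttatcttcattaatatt
mt-Co1: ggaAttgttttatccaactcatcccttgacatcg
Gm29216: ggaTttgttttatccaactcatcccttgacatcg
mt-Co3: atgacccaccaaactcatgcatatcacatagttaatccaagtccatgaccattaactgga

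The share of a pair's counts that went to the copy varied from library to library. Gm28437 took 0.00305%, 1.38%, 28.1%, 3.15% and 0.608% of the counts of the mt-Co3 pair in AAV2-GFP libraries 1 to 5, and 13.4%, 1.08%, 5.08%, 0.146% and 8.93% in AAV206-GFP libraries 1 to 5. The level of mt-Co3 itself was lowest, in each group, in the library where the copy took most. Gm28438 took 29.1%, 37.2%, 27.8%, 45.5% and 50.6% of the mt-Nd3 pair with AAV2-GFP, and 42.4%, 38.5%, 44.6%, 30.4% and 49.7% with AAV206-GFP. Gm29216 took between 0.284% and 3.60% of the mt-Co1 pair and Gm10925 up to 8.06% of the mt-Atp6 pair, while the copies of mt-Co2, mt-Nd4 and mt-Nd4l took at most 0.893%. The copies that passed the filter were Gm29216, Gm28437 and Gm28438, and none was called (edgeR adjusted p = 0.415, 0.820 and 0.705).

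Adding each copy to its gene mattered most for mt-Nd3, a complex I subunit with a negative fold change. Alone it had 199, 140, 232, 126 and 115 CPM for AAV2-GFP and 122, 134, 118, 149 and 118 CPM for AAV206-GFP, the groups overlapping (log2 fold change -0.34, SE 0.16, adjusted p = 0.163). Summed with Gm28438, the means were 258 ± 42.4 and 218 ± 9.25 CPM (log2 fold change -0.24, SE 0.09, adjusted p = 0.0868). The coefficient of variation over the AAV2-GFP libraries went from 31.3% to 16.4%. For mt-Co3 summing gave 3533 ± 354 and 3553 ± 238 CPM (log2 fold change 0.01, SE 0.07, adjusted p = 0.957), and the coefficient of variation went from 6.03% to 10.01% with AAV2-GFP and from 11.9% to 6.70% with AAV206-GFP. In the fit on summed rows, 1 of the 13 mRNAs was called and 12 had a fold change above 0, as in the fit without summing. The mRNA share with the copies included was 3.61% ± 0.150 and 3.86% ± 0.151, with 2 of the 5 AAV206-GFP libraries above the highest AAV2-GFP library.

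**Figure D4:**
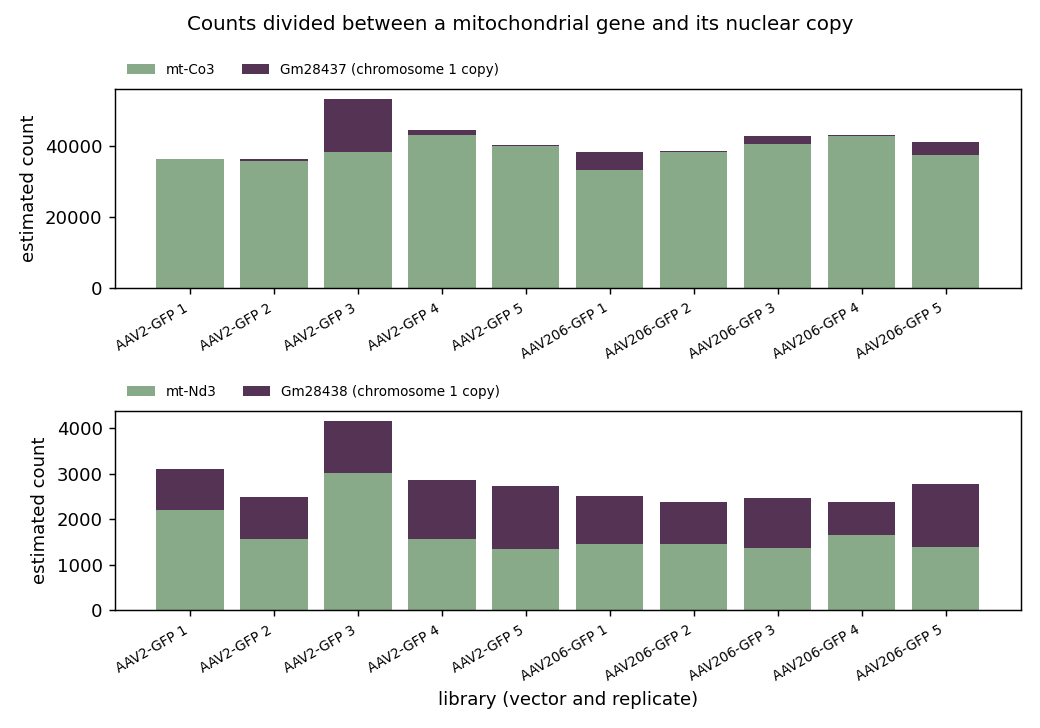
Bars are the estimated counts of mt-Co3 (top) and mt-Nd3 (bottom) in each library, stacked with those of the near-identical chromosome 1 copy. The copy took from 0.00305% to 28.1% of the mt-Co3 pair and from 27.8% to 50.6% of the mt-Nd3 pair.

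The nuclear genes that maintain and express the mitochondrial genome were then examined in lists, whose counts stand beside 11.2% called over all tested genes. Of 179 such genes tested, 7 were called higher and 5 lower (6.70%), with a median log2 fold change of -0.03. Among 16 genes of mitochondrial DNA replication and maintenance, 2 were called higher and 1 lower. Mgme1, an exonuclease that trims replicating mitochondrial DNA, fell from 13.6 ± 0.750 to 8.15 ± 1.08 CPM without overlap (log2 fold change -0.74, SE 0.12, edgeR adjusted p = 0.00117) and was called in all 10 fits without 1 library. Tk2, a mitochondrial thymidine kinase (0.27, adjusted p = 0.0469), and Primpol, a primase-polymerase (0.62, adjusted p = 0.0491), were called higher but in only 1 and 2 of those 10 fits.

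None of the 11 transcription genes was called with edgeR or with DESeq2. An unadjusted edgeR p under 0.05 was found for 1 of them, beside 4352 of all 15539 tested genes. Tfam, which packages mitochondrial DNA and starts its transcription, was at 21.9 ± 1.87 CPM for AAV2-GFP and 23.1 ± 3.80 CPM for AAV206-GFP (log2 fold change 0.07, adjusted p = 0.71). Polrmt, the mitochondrial RNA polymerase, had a log2 fold change of 0.17 (adjusted p = 0.113). Of 22 genes of RNA processing and stability, 2 were called, both lower. Slirp, which with Lrpprc stabilises mitochondrial mRNAs, fell from 20.5 ± 3.69 to 14.1 ± 1.77 CPM (log2 fold change -0.54, SE 0.13, edgeR adjusted p = 0.0151). Its counts carried decimals in all 10 libraries, so part of its reads was divided with another gene. Rexo2, an exonuclease that degrades short RNAs, fell by 0.36 on the log2 scale (adjusted p = 0.00929). Lrpprc was at 108 ± 7.17 and 113 ± 7.88 CPM (log2 fold change 0.06, adjusted p = 0.593).

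Genes acting on tRNAs held a few called members, all higher. Of 17 tRNA modification genes 1 was called, Nsun3, a methyltransferase of mitochondrial tRNA, which rose from 7.78 ± 0.828 to 12.01 ± 1.17 CPM without overlap (log2 fold change 0.63, SE 0.13, edgeR adjusted p = 0.00498). Of 22 aminoacyl-tRNA synthetases 2 were called, Iars2 for isoleucine (0.32, adjusted p = 0.00170) and Gars for glycine, which also serves the cytosol (0.38, adjusted p = 0.00361). Each of these was called in all 10 fits without 1 library.

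The proteins that join the rRNAs in the mitochondrial ribosome gave 2 called higher and 2 called lower among 78 tested, with a median of -0.14 and 62 below 0. The small-subunit proteins, partners of the 12S rRNA, had 1 called higher and 1 lower of 29, with a median of -0.13, and the large-subunit proteins 1 and 1 of 49, with a median of -0.15. Mrps25 fell from 49.6 ± 8.83 to 36.1 ± 3.58 CPM (log2 fold change -0.46, SE 0.11, edgeR adjusted p = 0.0143), with decimals in all 10 libraries. Mrpl24 fell by 0.25 on the log2 scale (adjusted p = 0.0483), whereas Mrpl3 rose (0.34, adjusted p = 0.0171) and so did Mrps10 (0.32, adjusted p = 0.0393). Of these 4 genes, Mrps25 was called in 10, Mrpl3 in 9, Mrpl24 in 3 and Mrps10 in 2 of the 10 fits without 1 library. None of the 15 translation factors was called with edgeR, and DESeq2 called 1. An unadjusted edgeR p under 0.05 was found for 5 of them, beside 4352 of all 15539 tested genes.

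The nuclear-encoded subunits of the same respiratory complexes were mostly below 0. Of 81 tested, 75 had a log2 fold change below 0, with a median of -0.20, and 1 was called higher and 7 lower (9.88%). In complex I, Ndufs1 was called higher (0.21, edgeR adjusted p = 0.0376) and 3 of 37 lower, among them Ndufa12 (-0.37, adjusted p = 0.0235) and Ndufa1 (-0.44, adjusted p = 0.0290). Uqcrh of complex III (-0.33), Cox6b1 and Cox8a of complex IV (-0.35 and -0.43) and Atp5e of complex V (-0.48) were also called lower, with adjusted p of 0.0303, 0.0282, 0.0474 and 0.0447. None of these 7 named subunits was called in all 10 fits without 1 library, the range being 2 to 7. Each of the lower subunits named here had its highest level of all 10 libraries in AAV2-GFP library 3. Cox8a was at 133 CPM there and at 81.9 to 95.7 CPM in the other AAV2-GFP libraries. The listed subunits together summed to between 5323 and 7031 CPM for AAV2-GFP and between 4965 and 5614 CPM for AAV206-GFP. No subunit of complex II, which has no mitochondrially encoded part, was called among 4 tested. Fold changes also followed transcript length over the whole table: across 15287 tested genes with a known length, Spearman's rho between the longest transcript's length and the log2 fold change was 0.246, a description across genes that are not independent. The median log2 fold change was -0.11 in the shortest of 4 equal classes by length and 0.07 in the longest. Within the shortest class, the 67 subunits it holds had a median of -0.25. The median longest transcript was 1046 bases for these subunits and 3361 bases over all tested genes. The part of length in these fold changes was not tested.

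Of 17 genes used as measures of mitochondrial content, 14 had a log2 fold change below 0 and 3 above 0, with a median of -0.04. Among them 1 was called higher and 2 lower (17.6%). Tomm20, an import receptor of the outer membrane, rose from 214 ± 11.2 to 263 ± 15.9 CPM (log2 fold change 0.30, SE 0.06, edgeR adjusted p = 0.00528). Hspd1, the matrix chaperonin, fell from 115 ± 6.87 to 94.2 ± 6.34 CPM (-0.29, SE 0.06, adjusted p = 0.00993). Cycs, cytochrome c, was also called lower (-0.29, adjusted p = 0.0474), in 1 of the 10 fits without 1 library. Of 10 regulators of biogenesis, Ppargc1b was called higher (0.28, adjusted p = 0.0288), in 5 of those fits. Among 7 tested genes of mitochondrial double-stranded RNA sensing and stress, 2 transcription factors of the stress response were called lower, Ddit3 from 39.2 ± 5.38 to 29.3 ± 2.55 CPM (-0.42, adjusted p = 0.0112) and Atf4 (-0.26, adjusted p = 0.0486), the latter in 3 of the 10 fits without 1 library. Like Slirp and Mrps25, the genes Primpol, Iars2, Mrpl24, Ndufs1, Ndufa12, Hspd1, Cycs and Mrpl3 carried decimals in some or all libraries, so their counts are uncertain in the same way. Mgme1, Slirp, Rexo2, Mrps25, Mrpl24, Hspd1, Cycs, Ddit3 and Atf4, called lower, also had their highest level in AAV2-GFP library 3. Of these, Mgme1, Slirp, Rexo2, Mrps25, Hspd1 and Ddit3 were called in all 10 fits without 1 library.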

How the data were processed

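Retinal RNA of 10 mice was sequenced as 150-base read pairs, per the labels' protocols. Each deposited value is the estimated count of a gene in a library, unscaled by the authors. Per the submitters' processing notes, STAR 2.7.10b, RSEM 1.3.1 and the mm10 build were used, with no role given. Decimals stood in 5.95% of values, so values were rounded; the planned edgeR test presupposed whole numbers. GENCODE M21 (GRCm38) gave names and coordinates and lacked 4981 of the 57010 rows.

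Groups and replicate numbers came from the sample labels. Genes were filtered with filterByExpr (minimum count 10), scaled by TMM and tested with edgeR 4.0.16 in R 4.3.3 on all 10 libraries without covariates, with Benjamini-Hochberg adjustment over 15539 genes. Standard errors are the absolute log2 fold change over the square root of F. Libraries of a group differed by more than sampling noise (chi-square per degree of freedom 3.69 to 22.3). At 10989843 to 12752604 counts per library, 3 counts are 0.235 to 0.273 CPM, for counting error only. Nuclear copies were found by aligning each gene to annotated transcripts (at least 95% identity over 150 bases). The procedure was tested on simulated counts.

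The members, lists and tests were chosen with earlier results of these data known. All mt- rows are accounted for. From each nuclear list the called genes with the smallest p were named, at most 2 per direction (4 for ribosomal proteins), plus Tfam, Polrmt, Lrpprc, Slirp and the copies that passed the filter. Marker genes and Malat1 and Meg3 were named after their values were seen. Alternatives were other scalings, filters, DESeq2 1.42.0, limma 3.58.1, robust dispersions, a replicate block, other denominators for the shares and each library left out. Summing with copies, leaving out 2 libraries together and scaling to mitochondrial mRNA were added after seeing the data.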

Additional observations from a re-analysis of the deposited data

Results flagged for a closer look

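Of 90 sets of 5 values examined, 9 held 1 library whose gap to the nearest of the others exceeded Dixon's 95% limit for its range (0.71), where chance gives about 1 in 20, or 4.5. With AAV206-GFP, mt-Nd4 was at 3917 CPM in library 2 against 3572 to 3661 in the others, and mt-Nd6 at 280.0 CPM in library 3 against 328 to 347. The share of all mitochondrially encoded genes was 3.89% in AAV2-GFP library 3 against 3.61% to 3.69%. Mgme1 was at 10.01 CPM in AAV206-GFP library 2 against 7.25 to 8.04, still below every AAV2-GFP library.

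The other 5 were shares of a pair's counts given to a chromosome 1 copy. Gm28437 took 28.1% of the mt-Co3 pair in AAV2-GFP library 3 against 0.00305% to 3.15% in the other AAV2-GFP libraries. Gm10925 took 0.292% of the mt-Atp6 pair in AAV2-GFP library 2, with at most 0.0827% in the others. Gm28661 took 0.893% of the mt-Co2 pair in AAV2-GFP library 5 and 0.00262% in AAV206-GFP library 5. Gm28439 took 0.0225% of the mt-Nd4 pair in AAV2-GFP library 5 and 0% in the other AAV2-GFP libraries. The causes were not tested.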

How the results depend on the processing

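mt-Rnr1 kept its direction and its call in every fit run. Leaving out 1 library gave 991 to 1912 called genes (991 without AAV2-GFP 4, 1061 without AAV206-GFP 2, 1056 without AAV206-GFP 4), against 1747 with all, 0 to 2 called mitochondrial mRNAs against 1, 1 called rRNA throughout, and 8 to 18 called nuclear genes of mitochondrial gene expression against 12. The difference in mRNA share was between 0.195 and 0.309 percentage points, and in rRNA share between -0.0297 and -0.0170. Same-numbered mice did not deviate together (r from -0.0569 to 0.0232), and no library correlated best with its own number. With the replicate block, 1085 genes, 0 mitochondrial mRNAs and 8 nuclear genes were called. The number of mitochondrial mRNAs called was 2 with upper-quartile factors, with DESeq2 and with limma-voom sample weights. Without AAV2-GFP 1 and 4 together, 985 genes and 0 mitochondrial mRNAs were called. Scaling to the mitochondrial mRNA count, which moves every gene by the difference in that count and so turns small positive values by construction, gave 2622 genes, 0 mitochondrial mRNAs, 2 rRNAs and 27 nuclear genes, and turned mt-Nd2 (-0.0643), mt-Co2 (-0.0347), mt-Co3 (-0.0713), mt-Nd4 (-0.038), mt-Nd6 (-0.0507), Tfam (-0.0383) and Lrpprc (-0.0475), none past the threshold. With 1 library left out, signs turned for mt-Co3 (-0.0141 to 0.1), Tfam (-0.0308 to 0.117) and Gm28438 (-0.195 to 0.0103) without AAV206-GFP 4 and for Gm28437 (-0.982 to 2.11) without AAV2-GFP 3. Tfam also turned without AAV2-GFP 1 and 4 (-0.00407), and Gm28437 with limma-voom (1.54 with and without weights) and the block (0.329). Of the alternatives for single genes, 339 for mitochondrial and 788 for named nuclear genes kept direction and side of the threshold, and 9 and 158 lost a call. The cause of the other changes was not tested. The number of counts limits the precision for mt-Atp8 (97 to 196 per library).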
